A study of Homo sapiens with 8 samples.

Results

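The WNT pathway of H9 hESCs was examined through 55 genes, listed by symbol with earlier results of these data known. They were 15 WNT ligands, 10 Frizzled receptors, 4 co-receptors, 7 secreted antagonists and 2 genes for acylation and secretion of ligands. The rest were 4 genes for receptor turnover, 8 cytoplasmic transducers and 5 nuclear factors. Of the 55 genes, 47 were found among the 19472 genes of the crowding table. The same 47 were found among the 19551 genes of the ETV4 table. WNT1, WNT3A, WNT6, WNT7A, WNT8A, WNT10B, DKK4 and SP5 are in neither table and were not analysed here. Each table lists genes with at least 1 read in all of its 4 libraries.

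H9 is an established human embryonic stem cell line, grown here on Matrigel in mTeSR1 or TeSR-E8, and poly-A RNA was sequenced from 8 libraries in 4 groups of 2. The first experiment compared low-density cultures, labelled small, with crowded cultures, in which islands of Matrigel restricted the area open to adhesion. The second compared cells with a control short hairpin RNA (Ctrl) with cells in which a hairpin against ETV4, an ETS-family transcription factor of the PEA3 group, was expressed (ETV4 KD). The labels name no differentiation treatment. Which medium and which hairpin each library had, and whether the 2 libraries of a group came from separate cultures, is not stated for these libraries, so the p-values measure the spread between these libraries, which may be technical. The study states in general terms that its experiments were repeated, without naming the sequencing.

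WNT proteins are acylated by PORCN, carried to the cell surface by WLS and bound by Frizzled receptors together with LRP5 or LRP6. Binding recruits Dishevelled, stops the AXIN, APC and GSK3 destruction complex and lets beta-catenin enter the nucleus, where it acts with TCF and LEF factors. ROR1 and ROR2 serve branches that do not need beta-catenin, SFRP proteins bind ligands outside the cell, and RNF43 and ZNRF3 remove Frizzleds from the surface unless R-spondins engage LGR receptors. Several target genes are feedback inhibitors, AXIN2, NKD1 and RNF43 among them. In embryonic stem cells and the epiblast, WNT signalling is known for its part in primitive streak and mesendoderm formation.

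Promoter windows, from 250 bases before to 50 bases after a start site, were read from RefSeq on GRCh38.p14 for genes whose RNA changed, and 33 of the 47 genes had one. AXIN2, FZD2 and NKD1 had none. The windows of 4 genes are shown: WNT3, LGR4 and FZD5, the ligand and the receptors with the smallest adjusted p between the densities, and TCF7, the only changed gene whose window held an ETS core. Capitals mark the letters of a CCAAT box (CCAAT), a GC box (GGGCGG), an ETS core (CCGGAA) or a TCF/LEF core (CTTTGA), searched on both strands.
WNT3, chr17:46818643-46818942, minus strand: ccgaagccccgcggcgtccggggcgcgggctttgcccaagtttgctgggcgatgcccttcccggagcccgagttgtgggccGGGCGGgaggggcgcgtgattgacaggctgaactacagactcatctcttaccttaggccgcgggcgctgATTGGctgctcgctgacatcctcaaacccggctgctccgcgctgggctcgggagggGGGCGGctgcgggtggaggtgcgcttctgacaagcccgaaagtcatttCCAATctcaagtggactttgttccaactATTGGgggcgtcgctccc
FZD5, chr2:207769857-207770156, minus strand: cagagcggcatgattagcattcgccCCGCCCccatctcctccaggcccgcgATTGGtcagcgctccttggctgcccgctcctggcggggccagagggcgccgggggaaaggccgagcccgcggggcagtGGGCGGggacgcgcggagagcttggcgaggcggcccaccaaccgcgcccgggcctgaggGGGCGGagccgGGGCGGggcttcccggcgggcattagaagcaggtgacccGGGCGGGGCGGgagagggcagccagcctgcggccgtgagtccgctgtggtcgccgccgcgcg
LGR4, chr11:27472741-27473040, minus strand: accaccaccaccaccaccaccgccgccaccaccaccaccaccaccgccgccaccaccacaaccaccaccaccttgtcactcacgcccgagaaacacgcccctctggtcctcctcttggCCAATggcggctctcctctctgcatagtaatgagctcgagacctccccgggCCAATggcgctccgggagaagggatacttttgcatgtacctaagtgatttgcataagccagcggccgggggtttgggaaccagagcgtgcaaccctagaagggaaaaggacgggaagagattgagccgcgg
TCF7, chr5:134115363-134115662, plus strand: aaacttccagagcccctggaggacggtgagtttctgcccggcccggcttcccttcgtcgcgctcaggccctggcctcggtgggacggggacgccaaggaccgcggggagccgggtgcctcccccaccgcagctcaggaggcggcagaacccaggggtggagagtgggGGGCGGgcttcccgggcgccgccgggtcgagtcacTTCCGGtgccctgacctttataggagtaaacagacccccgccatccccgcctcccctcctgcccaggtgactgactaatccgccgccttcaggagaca
The WNT3 window held 3 CCAAT and 2 GC boxes, that of FZD5 held 1 CCAAT and 6 GC boxes, of which the last 2 share a base, that of LGR4 held 2 CCAAT boxes, and that of TCF7 held 1 GC box and 1 ETS core. Among the 10 changed genes with a window, an ETS core was found for 1 (TCF7) and a TCF/LEF core for 0, against 17.2% and 12.9% of all 35114 windows. A CCAAT box was found for 8 and a GC box for 6 of the 10, against 34.6% and 45.0% of all windows. Over all 33 pathway genes with a window, changed or not, the counts were 20 for a CCAAT box, 28 for a GC box, 6 for an ETS core and 2 for a TCF/LEF core. RNF43, TCF7 and WLS have 2 windows each and were counted if either held the motif, so shares of genes and of windows are not on the same base. These are matches of letters in a short window, and binding was not measured.

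The pathway was expressed unevenly. Levels are given as FPKM, deposited by the authors: the fragments of a gene scaled to the length of its transcript and to the mapped fragments of the library, which allows genes to be set side by side within a table. SFRP2, a secreted ligand-binding antagonist, was the most abundant, at 172 and 171 FPKM in the low-density libraries. FZD7, the main Frizzled receptor of these cells by level, stood at 121 and 124 FPKM, and SFRP1 at 61.7 and 60.8 FPKM. TCF7L1, a nuclear factor known chiefly as a repressor, stood at 58.8 and 59.2 FPKM. The ligands were at the other end. The 9 in the table summed to 4.19 and 3.51 FPKM at low density, and 8 of them had a mean below 1 FPKM over that experiment. Of the 47 genes, 17 had a mean below 1 FPKM in both groups of the crowding experiment. In the ETV4 experiment 17 did so, not all of them the same genes.

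ETV4 RNA checked the labels of the second experiment. It read 90.8 and 95.1 FPKM in Ctrl and 45.6 and 40.9 FPKM in ETV4 KD, 2.23-fold lower (log2 fold change -1.15 ± 0.07, SE, n = 2 per group, edgeR adjusted p = 1.60e-04). In the first experiment it read 73.2 and 72.6 FPKM at low density and 54.2 and 53.9 FPKM in crowded cells, a log2 fold change of -0.49 ± 0.06 (edgeR adjusted p = 9.42e-07).

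The first comparison asked how crowding changes the transcripts. Read counts were compared with the quasi-likelihood test of edgeR over all genes, and a gene was called where the adjusted p was below 0.05 and the absolute log2 fold change above 0.5. Crowded cells had more RNA of the feedback inhibitors AXIN2, RNF43 and NKD1, of the R-spondin receptor LGR4, of the factors TCF7 and LEF1, of WLS, of FZD8 and of the ligands WNT4 and WNT8B. They had less of the ligand WNT3 and of the receptors FZD2 and FZD5. In all, 13 of 46 genes tested were called (28.3%), 10 higher and 3 lower, while 16.1% of the 17672 genes tested were called, 10.7% higher and 5.47% lower. In limma on log2 FPKM the directions were nearer balance. With a pseudocount of 0.5 or 0.1 it called 4 higher and 3 lower of 34 tested, beside 12.0% and 14.5% of all genes. With a pseudocount of 1 it called 2 higher and 3 lower, beside 8.74%. Those fits left out genes with a mean below 0.5 FPKM, among them WNT4, WNT8B, WLS, RNF43 and LEF1. Without that filter, at a pseudocount of 0.5, 5 were called higher and 3 lower of 47 tested, beside 9.44% of all genes. By edgeR a further 11 passed the adjusted p at a smaller fold, 3 higher and 8 lower, and 22 of the 46 did not pass it. Of all genes tested, 39.7% passed the adjusted p at any fold. The FPKM of the groups did not overlap for 39 of the 46, 27 higher and 12 lower, and for 70.2% of all genes tested, 41.2% higher and 29.0% lower. The median log2 fold change was 0.11 over the 46 and 0.00 over all genes. In bulk RNA, a change in the share of cells that express a gene and a change in RNA per cell cannot be told apart.

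**Figure D1:**
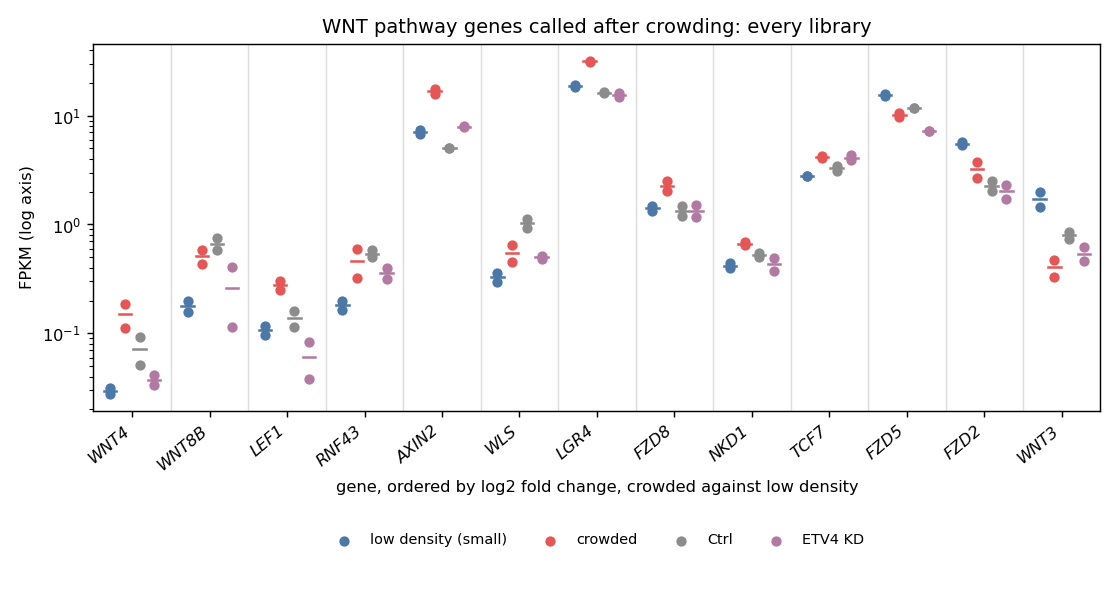
FPKM (log axis) of the 13 genes called between low-density and crowded cells, with 1 point per library and a bar at the mean of the 2 libraries of each group. AXIN2 and LGR4 lie above all low-density points in the crowded libraries, WNT3 lies below them, and WLS moves up with crowding and down with ETV4 KD.

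The ligands changed in composition more than in sum. WNT3, a ligand that signals through beta-catenin and is needed for the primitive streak, read 1.97 and 1.45 FPKM (372 and 331 reads) at low density and 0.474 and 0.332 FPKM (98 and 78 reads) in crowded cells. The groups did not overlap, and WNT3 was 4.42-fold lower (log2 fold change -2.14 ± 0.21, n = 2 per group, edgeR adjusted p = 2.09e-07). WNT8B, a ligand of the developing forebrain, read 0.199 and 0.158 FPKM at low density and 0.582 and 0.437 FPKM when crowded, 2.72-fold higher (log2 1.44 ± 0.33, edgeR adjusted p = 0.00153). WNT4 rested on few reads, 7 and 9 at low density and 29 and 53 when crowded, and passed the filter on low counts only through the crowded group, so its log2 fold change of 2.19 ± 0.46 (edgeR adjusted p = 7.60e-04) is a weaker basis. WNT3 made up 46.9% and 41.4% of the summed ligand FPKM at low density and 15.1% and 10.1% when crowded. The sum itself was 4.19 and 3.51 FPKM against 3.13 and 3.29 FPKM. WNT5A and WNT5B, ligands mostly of the branches without beta-catenin, and WNT2B, WNT7B, WNT9A and WNT11 were not called, with log2 fold changes from -0.15 for WNT5B to 1.07 for WNT7B.

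**Figure D2:**
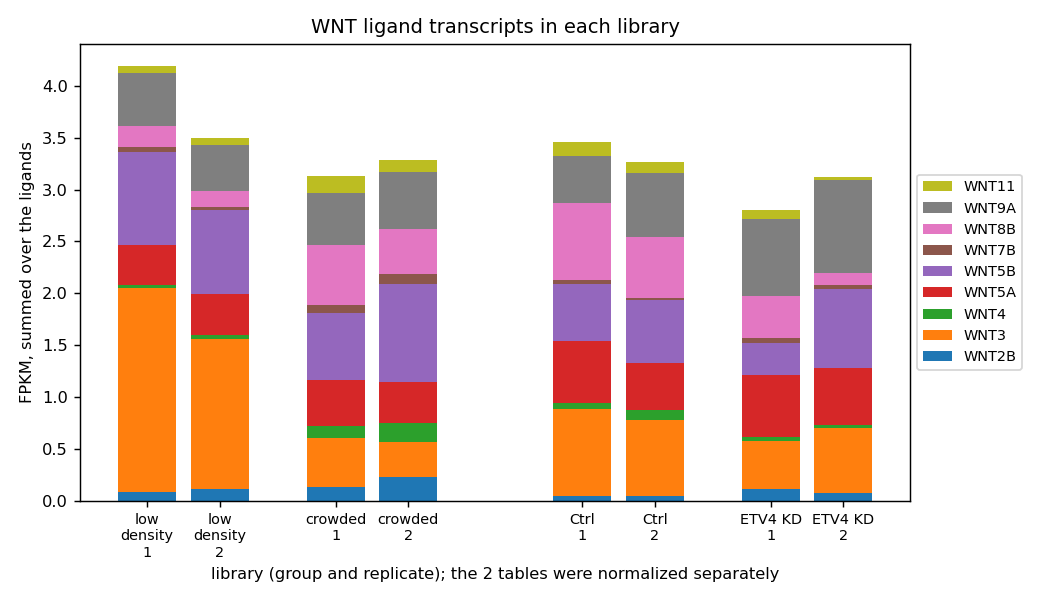
FPKM of the 9 WNT ligands stacked for each of the 8 libraries, grouped as low density, crowded, Ctrl and ETV4 KD. WNT3 is the largest part at low density (46.9% and 41.4%) and a small one in crowded cells (15.1% and 10.1%), while the summed height stays between 2.80 and 4.19 FPKM over all libraries.

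Among the Frizzled receptors, 3 of 10 were called and the dominant one did not pass. FZD7 read 121 and 124 FPKM at low density and 133 and 124 FPKM when crowded (log2 0.02 ± 0.05, 95% interval -0.09 to 0.12, edgeR adjusted p = 0.839), and it held 78.4% to 81.7% of the Frizzled FPKM in this experiment. FZD5, a receptor expressed in the early embryo and the eye field, read 15.3 and 15.7 FPKM and then 10.6 and 9.69 FPKM, 1.59-fold lower (log2 -0.67 ± 0.06, edgeR adjusted p = 2.66e-08). FZD2 read 5.40 and 5.67 FPKM and then 3.75 and 2.67 FPKM, 1.80-fold lower (log2 -0.85 ± 0.13, edgeR adjusted p = 3.73e-04). FZD8 went the other way, from 1.34 and 1.48 FPKM to 2.49 and 2.02 FPKM (log2 0.62 ± 0.15, edgeR adjusted p = 0.00221), although without the first crowded library its log2 fold change was 0.46, under the threshold. FZD3 and FZD6 were higher past the adjusted p but under the fold threshold, at 0.23 and 0.42 on the log2 scale.

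None of the 4 co-receptors was called. LRP5 read 10.3 and 10.4 FPKM at low density and 10.6 and 10.1 FPKM when crowded, and LRP6 read 12.0 and 12.1 and then 10.6 and 12.0 FPKM. Their 95% intervals, -0.18 to 0.07 and -0.27 to -0.02 on the log2 scale, lie within the fold threshold. ROR1, the most abundant of the 4, went from 21.4 and 20.7 FPKM to 20.0 and 18.0 FPKM, past the adjusted p at a log2 fold change of -0.22 ± 0.06 (edgeR adjusted p = 0.00786). ROR2 read between 1.79 and 2.01 FPKM in the 4 libraries.

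None of the 5 secreted antagonists tested was called, and they ranged widely in level. SFRP2 went from 172 and 171 FPKM to 154 and 150 FPKM, 1.18-fold lower (log2 -0.24 ± 0.05, edgeR adjusted p = 0.00104) and under the fold threshold. SFRP1 read 61.7 and 60.8 FPKM and then 68.2 and 57.0 FPKM, so that the crowded libraries lay on both sides of the low-density ones, and its log2 fold change of -0.03 ± 0.07 took the opposite sign, 0.02, when only library size was scaled. DKK3, a divergent member of the DKK family, went from 7.18 and 7.42 to 6.11 and 6.37 FPKM (log2 -0.28 ± 0.08, edgeR adjusted p = 0.00897). FRZB, a further ligand-binding antagonist of low level, read 0.406 and 0.361 FPKM and then 0.714 and 0.530 FPKM and just missed the test (log2 0.64 ± 0.26, edgeR adjusted p = 0.0557). It was called with only library size scaled and without the second crowded library. SFRP5 was below 2 FPKM in every library and was at 0.34 ± 0.20. DKK1, an LRP inhibitor and target of beta-catenin, had 5 to 13 reads per library and did not pass the filter on low counts.

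The genes that handle ligand release and receptor turnover were mixed. WLS, the carrier that brings WNT proteins to the surface, read 0.361 and 0.298 FPKM (49 and 53 reads) at low density and 0.452 and 0.651 FPKM (77 and 127 reads) when crowded (log2 0.84 ± 0.28, edgeR adjusted p = 0.0196). That call rested on single libraries: without the second crowded library the log2 fold change was 0.55 (edgeR adjusted p = 0.219), and without the second low-density library it was 0.76 (edgeR adjusted p = 0.107). PORCN, the acyltransferase, read 5.79 and 5.95 FPKM and then 6.61 and 6.77 FPKM and did not pass (log2 0.13 ± 0.10, edgeR adjusted p = 0.307), although its FPKM did not overlap between the groups. LGR4, the R-spondin receptor, rose from 18.5 and 19.2 FPKM to 32.0 and 31.2 FPKM, 1.61-fold (log2 0.68 ± 0.06, edgeR adjusted p = 1.06e-08). RNF43, a Frizzled-directed ubiquitin ligase, rose from 0.200 and 0.163 FPKM to 0.320 and 0.596 FPKM (log2 1.28 ± 0.28, edgeR adjusted p = 0.00130), and stood at 0.77 without the second crowded library. Its relative ZNRF3, with more RNA at 4.55 and 4.73 FPKM, read 4.22 and 4.27 FPKM when crowded, a log2 fold change of -0.18 ± 0.07 in the other direction (edgeR adjusted p = 0.0404). LGR5 had 3 to 18 reads per library and was not called.

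Inside the cell, the feedback inhibitors rose and the core components were not called. AXIN2, a scaffold of the destruction complex that beta-catenin induces, read 7.42 and 6.80 FPKM at low density and 17.5 and 15.9 FPKM when crowded. It was 2.27-fold higher, with no overlap (log2 1.18 ± 0.07, n = 2 per group, edgeR adjusted p = 6.67e-11), the smallest adjusted p of the 46 genes. NKD1, which inhibits Dishevelled, rose from 0.445 and 0.395 FPKM to 0.649 and 0.688 FPKM (log2 0.61 ± 0.11, edgeR adjusted p = 2.21e-04). AXIN1, the constitutive counterpart of AXIN2, read 16.8 and 17.2 FPKM and then 15.6 and 15.0 FPKM (log2 -0.21 ± 0.06, edgeR adjusted p = 0.00726). DVL3 and APC also passed the adjusted p at small negative values, -0.28 and -0.23 on the log2 scale. DVL1, DVL2 and GSK3B, the kinase that marks beta-catenin for destruction, read between 8.82 and 18.4 FPKM in the 4 libraries and had log2 fold changes of 0.09, 0.15 and 0.14, none past the adjusted p. AXIN2 shares part of its span (chr17:63524681-63557766, GRCh37) with 1 other annotated gene on the same strand.

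All 4 nuclear factors tested passed the adjusted p, which 39.7% of all genes tested passed at any fold. TCF7L1 read 58.8 and 59.2 FPKM and then 53.9 and 45.7 FPKM (log2 -0.30 ± 0.07, edgeR adjusted p = 0.00215), and TCF7L2 read 13.9 and 13.5 FPKM and then 17.0 and 16.6 FPKM (log2 0.23 ± 0.06, edgeR adjusted p = 0.00319), both under the fold threshold. TCF7, itself a target of the pathway, rose from 2.80 and 2.81 FPKM to 4.11 and 4.25 FPKM (log2 0.51 ± 0.10, edgeR adjusted p = 3.84e-04), just inside the threshold, and stood at 0.49 without the second crowded library. LEF1 rose from 0.118 and 0.0970 FPKM (25 and 24 reads) to 0.250 and 0.304 FPKM (57 and 77 reads), a log2 fold change of 1.29 ± 0.33 (edgeR adjusted p = 0.00371). TCF7L1 thereby went from 77.8% and 78.3% of the FPKM of the 4 factors to 71.7% and 68.3%. The span of TCF7 (chr5:133450372-133487556, GRCh37) overlaps SKP1 on the opposite strand, and the strand setting of the read counting is not given in the sources used here.

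Genes commonly used as targets of beta-catenin that were called after crowding were all higher. Of the 19 listed, 10 of them among the 55 genes, 13 were tested and 8 were called, beside 16.1% of all genes tested (10.7% higher), with a median log2 fold change of 0.75 over the 13. Outside the 55 genes, 3 of 6 tested were called, named here after their values were seen: NOTUM, a secreted WNT deacylase, at 1.96 ± 0.40 (10 and 14 reads at low density, 43 and 61 when crowded), SP8 at 1.70 ± 0.21 (0.392 and 0.388 FPKM, then 1.06 and 1.58 FPKM) and TNFRSF19 at 0.75 ± 0.28 on the log2 scale (0.315 and 0.236 FPKM, then 0.616 and 0.324 FPKM). TNFRSF19 was not called without the first crowded library, at a log2 fold change of 0.30, or without the second low-density library, at 0.53 (edgeR adjusted p = 0.227). TBXT, MIXL1 and APCDD1 were not called, at 0.77, -0.38 and -0.52, nor were the listed members ZNRF3 and LGR5, at -0.18 (past the adjusted p) and -0.95.

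Of 71 further genes of the pathway, 62 were tested and 16 were called (25.8%), 12 higher and 4 lower. Beside these, 16.1% of all genes tested were called, 10.7% higher and 5.47% lower. Of the 4 lower calls, 1 passed the filter on low counts only through the low-density group, where it is higher, and is a weaker basis. CELSR1 and CELSR2, atypical cadherins of planar polarity, rose from means of 3.04 and 5.45 FPKM to 4.50 and 8.43 FPKM, PRICKLE1 from 6.13 to 9.70 FPKM and PRICKLE3 from 1.58 to 2.98 FPKM, with log2 fold changes of 0.51, 0.57, 0.61 and 0.86. Other genes known from planar polarity, named after their values were seen, were not called: CELSR3 at 0.41 and VANGL1 at -0.31 passed the adjusted p in opposite directions, and PTK7, DAAM1, PRICKLE2 and VANGL2 were at 0.11, 0.04, -0.03 and -0.08. NKD2 rose from 1.32 to 2.92 FPKM (log2 1.09 ± 0.17, edgeR adjusted p = 3.93e-05). TNIK, a kinase that binds TCF factors, fell from 8.24 to 4.01 FPKM (log2 -1.09 ± 0.07, edgeR adjusted p = 3.64e-09) and DACT1, a Dishevelled-binding protein, from 7.16 to 3.92 FPKM (log2 -0.94 ± 0.10, edgeR adjusted p = 9.29e-07). WIF1, a secreted inhibitor, fell from 2.24 and 2.51 FPKM in the low-density libraries to 1.39 and 1.61 FPKM in the crowded ones (log2 -0.72 ± 0.17, edgeR adjusted p = 0.00202). CELSR1 was at 0.47 without the second low-density library and PRICKLE1 at 0.49 without the first crowded library, both under the fold threshold.

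**Figure D3:**
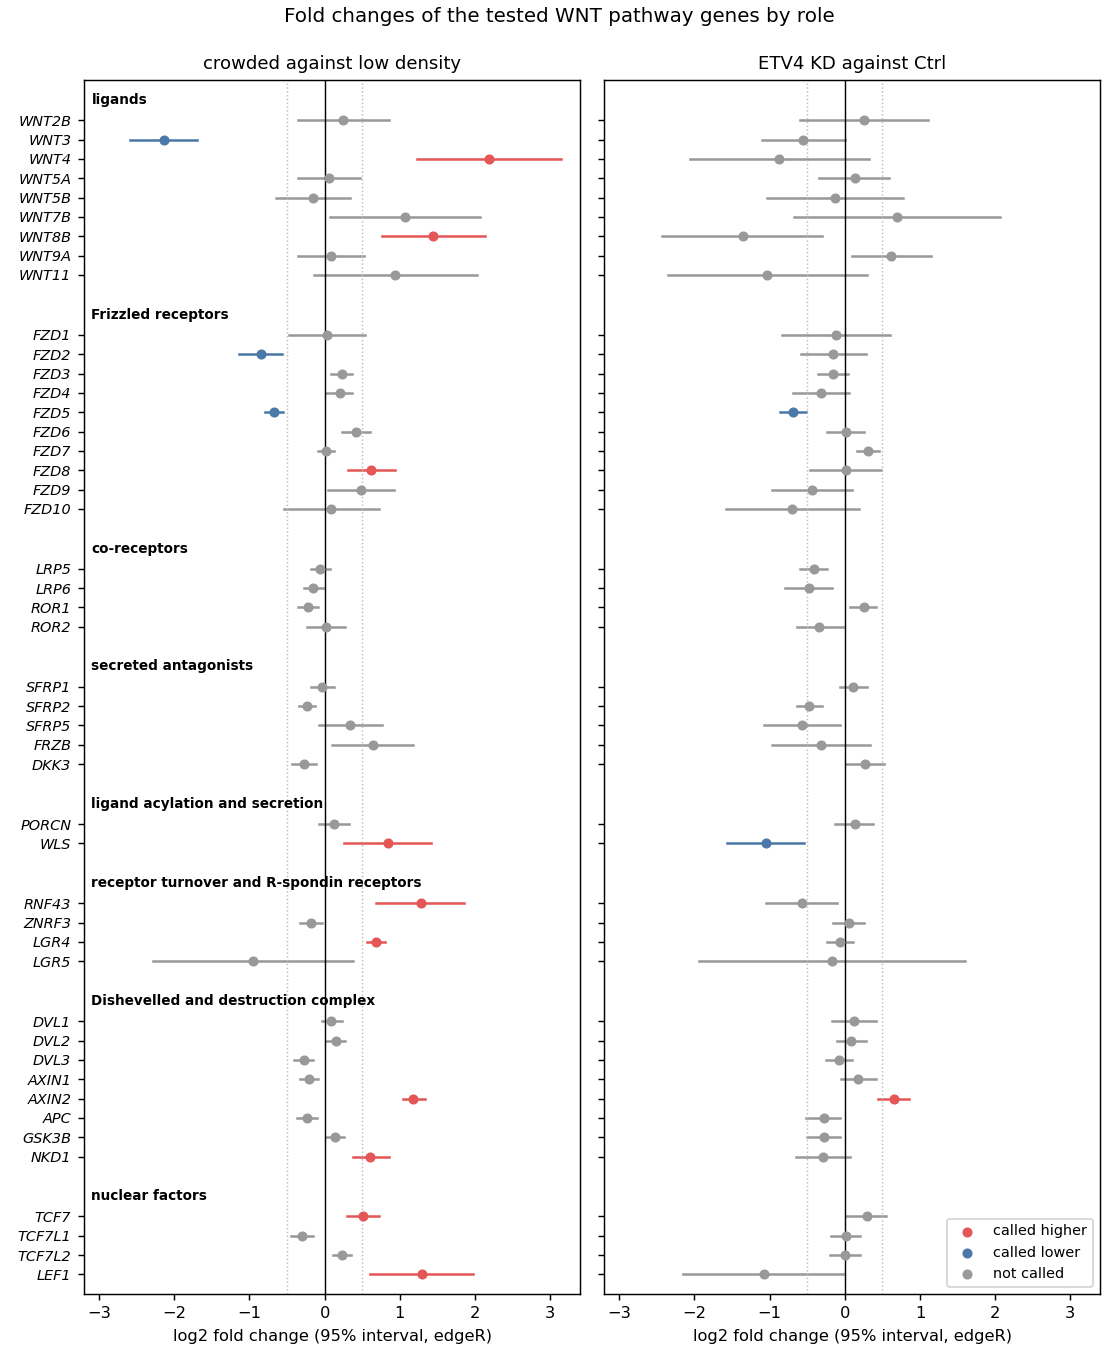
Log2 fold change with its 95% interval (edgeR) for the 46 genes tested, by role, between crowded and low-density cells (left) and between ETV4 KD and Ctrl (right). Red points were called higher, blue points called lower and grey points not called. Dotted lines stand at 0.5 and -0.5. There are 13 coloured points on the left and 3 on the right.

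Marker genes of other cell states were summed in each library as a check. All 12 pluripotency markers were at 1 FPKM or more in every group. Their sum was 3569 to 3811 FPKM in the crowding experiment and 2923 to 3212 FPKM in the ETV4 experiment. With crowding 0 of the 12 were called, and 8 passed the adjusted p under the fold threshold, 4 in each direction. After ETV4 KD 3 were called, DNMT3B and TDGF1 lower (log2 -0.82 for each) and LIN28A higher (log2 0.51). NANOG passed the adjusted p under the fold threshold in both experiments (log2 -0.46 and -0.44). Of the 6 mesendoderm markers, EOMES and MESP1 were not in the crowding table and TBXT, MIXL1 and GSC were under 1 FPKM in both its groups. With TBX6 they summed to 1.18 to 1.45 FPKM at low density and 2.32 to 2.47 FPKM when crowded. The rise in that sum lay in TBX6, called higher from 0.442 and 0.512 FPKM to 1.59 and 1.75 FPKM (log2 1.75). TBXT and MIXL1 were not called (log2 0.77 and -0.38). The definitive endoderm markers, 5 of 6 in the table and without SOX17, summed to 3.84 to 4.33 FPKM at low density and 0.453 to 0.612 FPKM when crowded. At low density that sum was mostly CER1, called lower from 3.24 and 3.82 FPKM to 0.443 and 0.189 FPKM (log2 -3.53). FOXA2 and CXCR4 were also called lower, from means of 0.231 and 0.272 FPKM. FOXA2 passed the filter on low counts only through the low-density group. GATA4 had 6 and 9 reads and then 8 and 21. The 7 of 8 neuroectoderm markers in each table summed to 95.6 FPKM in each low-density library and 71.6 to 82.6 FPKM when crowded, and to 49.7 to 56.2 FPKM in Ctrl and 77.6 to 87.7 FPKM in ETV4 KD. That sum is mostly NES, which was called lower with crowding, from a mean of 77.4 to 54.9 FPKM (log2 -0.55). LHX2 was also called lower with crowding (log2 -1.55), while SOX1 and ZNF521 were called higher (log2 2.27 and 0.70). SOX1 had 3 and 4 reads at low density and 20 and 18 when crowded, and LHX2 had 17 and 18 and then 6 and 7. SOX1 passed the filter on low counts only through the crowded group, and LHX2 only through the low-density group. HESX1 was not called (log2 -0.34). PAX6 had 6 and 16 reads at low density and 6 and 3 when crowded, and did not pass the filter on low counts. PAX6 was not in the ETV4 table. OTX2 read 10.7 and 11.2 and then 18.2 and 13.4 FPKM without passing the test. After ETV4 KD, OTX2 rose from 2.66 to 17.6 FPKM. NES went from 46.6 to 60.9 FPKM after ETV4 KD, past the adjusted p under the fold threshold (log2 0.39). With crowding, amnion and trophectoderm markers, 4 of 8 in the table, summed to 8.28 to 8.37 and then 12.3 to 13.1 FPKM. Among them TFAP2C was called higher (log2 0.61), KRT7 passed the adjusted p at 0.42, and GATA2 and ISL1 were not called. Fibroblast markers, 4 of 7, summed to 115 to 117 and then 83.6 to 84.3 FPKM. In the ETV4 experiment the mesendoderm markers (5 of 6, without GSC) summed to 1.22 to 1.72 FPKM in Ctrl and 1.69 to 1.85 FPKM in ETV4 KD. The endoderm markers (3 of 6) summed to 2.17 to 3.03 and then 1.26 to 1.79 FPKM. Their calls went both ways, with CER1 lower (log2 -1.09), GATA4 higher (log2 1.73) and CXCR4 not called. GATA4 had 10 and 15 reads in Ctrl and 42 and 41 in ETV4 KD. The amnion and trophectoderm markers (5 of 8) summed to 9.39 to 9.63 and then 9.45 to 9.68 FPKM. The fibroblast markers (5 of 7) summed to 153 to 156 and then 117 to 126 FPKM. The fibroblast sum is mostly THY1, which is also known from human pluripotent cells and went from 79.2 to 53.3 FPKM with crowding and from 118 to 67.5 FPKM after ETV4 KD, while COL1A1 rose from 21.9 to 43.9 FPKM after ETV4 KD. DCN and LUM were in neither table. The part of these shifts in the changes of WNT pathway genes was not tested.

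The second comparison asked which of these genes depend on ETV4. AXIN2 rose and FZD5 and WLS fell after ETV4 KD, and no other gene of the 46 tested was called (6.52%, 1 higher and 2 lower), while 13.0% of the 17879 genes tested were called, 5.88% higher and 7.10% lower. A further 4 passed the adjusted p at a smaller fold, and 39 of the 46 did not pass it. Of all genes tested, 21.5% passed the adjusted p at any fold. With only library size scaled, 5 were called, 1 higher and 4 lower. The FPKM of the groups did not overlap for 33 of the 46, 12 higher and 21 lower, and for 63.3% of all genes tested, 31.8% higher and 31.5% lower. The median log2 fold change was -0.14 over the 46 and 0.00 over all genes. The count depended on single libraries. Without the first ETV4 KD library 10 genes were called (WNT8B, WNT9A, FZD4, FZD5, LRP6, SFRP2, SFRP5, WLS, RNF43 and AXIN2), beside 18.6% of all genes, and without the second Ctrl library 5 were called (WNT8B, FZD5, LRP6, WLS and AXIN2). AXIN2 and FZD5 were called without any 1 of the 4 libraries.

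AXIN2 read 5.09 and 5.07 FPKM in Ctrl and 7.95 and 7.86 FPKM in ETV4 KD, 1.56-fold higher and without overlap (log2 0.65 ± 0.09, n = 2 per group, edgeR adjusted p = 0.00311). FZD5 read 11.8 and 11.7 FPKM in Ctrl and 7.27 and 7.26 FPKM in ETV4 KD, 1.61-fold lower (log2 -0.69 ± 0.08, edgeR adjusted p = 0.00142). WLS read 1.13 and 0.936 FPKM (193 and 146 reads) in Ctrl and 0.484 and 0.519 FPKM (81 and 80 reads) in ETV4 KD, 2.08-fold lower (log2 -1.05 ± 0.23, edgeR adjusted p = 0.0151). Without the first Ctrl library WLS was at -0.88 with an edgeR adjusted p of 0.107. WLS overlaps 3 annotated genes, 1 of them on the opposite strand.

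A further 3 receptors and 1 antagonist passed the adjusted p under the fold threshold. FZD7 went from 133 and 134 FPKM to 169 and 161 FPKM (log2 0.31 ± 0.07, edgeR adjusted p = 0.0153) and from 82.0% and 82.3% to 87.9% and 87.7% of the Frizzled FPKM. LRP5 went from 10.7 and 10.6 FPKM to 8.18 and 7.76 FPKM (log2 -0.41 ± 0.08, edgeR adjusted p = 0.0102), and LRP6 from 12.5 and 10.1 FPKM to 9.21 and 7.00 FPKM (log2 -0.48 ± 0.13, edgeR adjusted p = 0.0365). SFRP2 went from 176 and 173 FPKM to 133 and 119 FPKM (log2 -0.47 ± 0.07, edgeR adjusted p = 0.00451). In these 4 genes both ETV4 KD libraries lay on the same side of both Ctrl libraries. LRP6 and SFRP2 reached -0.66 and -0.52 without the first ETV4 KD library, past the fold threshold.

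The other genes with a mean of at least 5 FPKM did not pass the adjusted p. ROR1 read 16.8 and 15.6 FPKM in Ctrl and 19.4 and 18.3 FPKM in ETV4 KD (log2 0.25 ± 0.08, edgeR adjusted p = 0.0553), GSK3B 9.74 and 8.71 and then 8.06 and 7.08 FPKM (log2 -0.28 ± 0.09, edgeR adjusted p = 0.0599), and DKK3 5.98 and 5.42 and then 6.86 and 6.94 FPKM (log2 0.27 ± 0.11, edgeR adjusted p = 0.111). LGR4 read 16.4 and 16.0 FPKM in Ctrl and 16.3 and 14.8 FPKM in ETV4 KD, with a 95% interval of -0.24 to 0.11 on the log2 scale. TCF7L1 read 37.5 and 38.5 FPKM in Ctrl and 36.7 and 39.7 FPKM in ETV4 KD, and SFRP1 read 22.4 and 25.0 and then 25.4 and 25.6 FPKM. DVL1, DVL2, DVL3, AXIN1, TCF7L2 and PORCN had log2 fold changes from -0.08 for DVL3 to 0.18 for AXIN1. FZD2 and FZD6 were at -0.15 and 0.01.

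No ligand was called after ETV4 KD, among 9 tested. WNT3 read 0.846 and 0.740 FPKM in Ctrl and 0.461 and 0.620 FPKM in ETV4 KD (log2 -0.55 ± 0.24, edgeR adjusted p = 0.137). WNT8B read 0.747 and 0.587 FPKM in Ctrl (101 and 74 reads) and 0.403 and 0.114 FPKM in ETV4 KD (53 and 15 reads), so the 2 ETV4 KD libraries differed more from each other than the Ctrl libraries did (log2 -1.36 ± 0.46, edgeR adjusted p = 0.0694). Without the first of them it was at -2.46 (edgeR adjusted p = 0.00181), and without the second Ctrl library at -1.53 (edgeR adjusted p = 0.00874). WNT4, with 13 and 22 reads and then 11 and 8 reads, was at -0.87 ± 0.52 (edgeR adjusted p = 0.261).

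Of the other genes called higher after crowding, LEF1, RNF43 and NKD1 had values below 0 here without passing the test. LEF1 read 0.160 and 0.115 FPKM in Ctrl and 0.0832 and 0.0381 FPKM in ETV4 KD (log2 -1.08 ± 0.46, edgeR adjusted p = 0.130). RNF43 read 0.502 and 0.580 FPKM and then 0.401 and 0.319 FPKM (log2 -0.57 ± 0.21, edgeR adjusted p = 0.0843), and was called without the first ETV4 KD library, at -0.71 (edgeR adjusted p = 0.0459). NKD1 read 0.547 and 0.507 and then 0.492 and 0.370 FPKM (log2 -0.29 ± 0.16, edgeR adjusted p = 0.222). TCF7 had a value above 0 that did not pass, at 3.13 and 3.46 FPKM and then 4.34 and 3.90 FPKM (log2 0.29 ± 0.12, edgeR adjusted p = 0.114). FZD8 read 1.20 and 1.47 FPKM and then 1.16 and 1.51 FPKM, with a log2 fold change of 0.01 ± 0.21 and of -0.03 when only library size was scaled.

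Of the beta-catenin targets, 2 of 12 tested were called after ETV4 KD (16.7%, beside 13.0% of all genes tested), AXIN2 and TNFRSF19, both higher, the latter named after its values were seen. TNFRSF19 had 28 reads in each Ctrl library and 55 and 77 reads in the ETV4 KD libraries (log2 1.25 ± 0.34, edgeR adjusted p = 0.0343), and lost its call without either Ctrl library (edgeR adjusted p = 0.115 and 0.0683) and without the second ETV4 KD library (edgeR adjusted p = 0.143). NOTUM, with 29 and 26 reads and then 14 and 3 reads, was at -1.68 ± 0.58 and did not pass (edgeR adjusted p = 0.0735). Among the further pathway genes, 8 of 62 were called (12.9%), 4 in each direction, a share like the 13.0% of all genes tested. DACT1 fell from a mean of 8.09 to 3.44 FPKM (log2 -1.22 ± 0.10, edgeR adjusted p = 3.57e-04). CTNNBIP1, which blocks the contact of beta-catenin with TCF factors, fell from 13.3 to 8.72 FPKM (log2 -0.61 ± 0.09, edgeR adjusted p = 0.00324), and DAAM2, a formin of the Dishevelled branch, from 2.20 to 0.988 FPKM (log2 -1.15 ± 0.21, edgeR adjusted p = 0.00856). PRICKLE1 rose from 2.66 to 4.00 FPKM (log2 0.59 ± 0.11, edgeR adjusted p = 0.00858) and KREMEN2, a DKK co-receptor, from 2.52 to 4.03 FPKM (log2 0.68 ± 0.20, edgeR adjusted p = 0.0480). KREMEN2 lost its call without either Ctrl library (edgeR adjusted p = 0.0911 and 0.0535) or without the second ETV4 KD library (edgeR adjusted p = 0.181). Without the first Ctrl library, and also without the second ETV4 KD library, 4 of these 8 calls were made.

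Since ETV4 RNA was lower in both crowded and ETV4 KD cells, the 2 responses were compared gene by gene in 1 fit of all 8 libraries, as the log2 fold change after ETV4 KD minus that after crowding. The 2 experiments share no library. The difference was called for 14 of 47 genes (29.8%), 11 lower and 3 higher in the response to ETV4 KD, while it was called for 27.5% of all 17790 genes tested, 15.0% lower and 12.5% higher. With only library size scaled, 15 were called, 14 lower and 1 higher. The response had the same sign in both experiments for 22 of the 46 genes (47.8%) and for 41.7% of the 17206 genes tested in both.

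**Figure D4:**
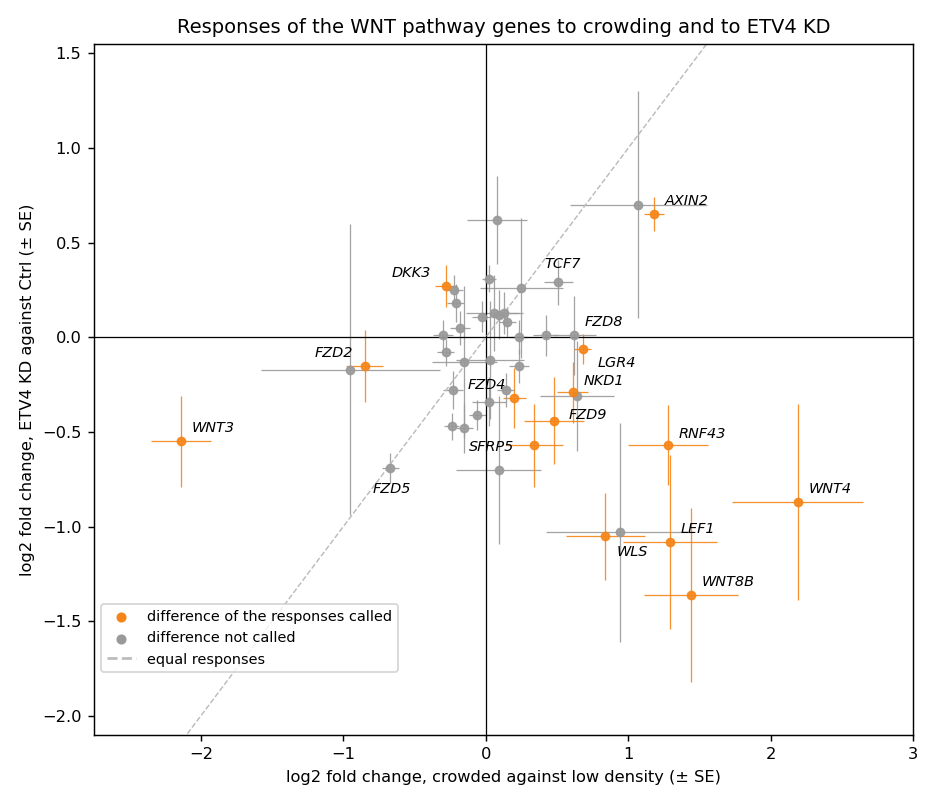
Log2 fold change after crowding (x axis) against that after ETV4 KD (y axis) for the 46 genes tested in both, with SE bars from edgeR. The dashed line marks equal responses, and orange points are genes for which the difference of the responses was called. FZD5 lies on the line, at -0.67 and -0.69, AXIN2 lies below it with both values above 0, and WLS, WNT4, WNT8B, LEF1 and RNF43 lie at the lower right.

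FZD5 and AXIN2 moved in the same direction in both experiments. For FZD5 the log2 fold changes were -0.67 and -0.69, and the difference was -0.01 ± 0.10 with a 95% interval of -0.22 to 0.20 (edgeR adjusted p = 0.939). AXIN2 rose in both, but by less after ETV4 KD, with a difference of -0.53 ± 0.11 (edgeR adjusted p = 0.00299), which was -0.45 without the first crowded library and -0.47 without the second low-density library, under the fold threshold. WLS was called in opposite directions, 0.84 after crowding and -1.05 after ETV4 KD, and the difference was -1.89 ± 0.35 (edgeR adjusted p = 0.00129).

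The other differences were mostly of genes called after crowding. WNT4 (-3.05 ± 0.68), WNT8B (-2.80 ± 0.60), LEF1 (-2.37 ± 0.54) and RNF43 (-1.84 ± 0.39) had the differences farthest below 0, with edgeR adjusted p-values of 0.00398, 0.00307, 0.00460 and 0.00295. WNT4 had 7 to 53 reads per library and LEF1 had 9 to 77. In the crowding experiment WNT4 passed the filter on low counts only through the crowded group. With at least 10 counts required in every library, WNT4 and LEF1 were both left out. NKD1 differed by -0.90 ± 0.19 (edgeR adjusted p = 0.00307) and LGR4 by -0.74 ± 0.09 (edgeR adjusted p = 8.60e-05), the difference with the smallest adjusted p of the 47. WNT3, called lower after crowding but not after ETV4 KD, differed by 1.60 ± 0.35 (edgeR adjusted p = 0.00342). FZD2 differed by 0.70 ± 0.25 (edgeR adjusted p = 0.0433), a call lost in 5 of the 8 fits that left out 1 library, namely the second crowded, either low-density, the first Ctrl or the second ETV4 KD library (log2 0.44 to 0.73, edgeR adjusted p = 0.0988 to 0.181), and DKK3 by 0.55 ± 0.13 (edgeR adjusted p = 0.00452), at 0.48 without the second Ctrl library. Like DKK3, the genes FZD4, FZD9 and SFRP5 were called for the difference but in neither experiment, at -0.51, -0.92 and -0.90. FZD4, FZD9 and SFRP5 each lost that call in 5 to 7 of the 8 fits that left out 1 library. Their values were -0.79 to -0.29 for FZD4, -1.20 to -0.69 for FZD9 and -1.12 to -0.71 for SFRP5. For TCF7 and FZD8, called after crowding, the difference was not called: -0.22 with a 95% interval of -0.52 to 0.09, and -0.60 with one of -1.17 to -0.04 (edgeR adjusted p = 0.243 and 0.0867).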

How the data were processed

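Poly-A RNA of H9 hESCs was sequenced as paired reads in 8 libraries, 2 for each of 4 groups, taken from the sample labels. The authors prepared stranded mRNA libraries, used TRIMMOMATIC for trimming, HISAT2 2.1.0 for mapping to GRCh37 and StringTie 2.1.3b for quantifying known transcripts, the versions being those of the submitters' processing notes. Per the file headers, the authors deposited read counts per gene, not normalized, and FPKM values, normalized for transcript length and mapped reads, in 1 table per experiment, and each table was used separately. Read counts totalled 50359703 to 62410168 per library, so for most genes the spread between libraries limits the precision more than counting does. The biological coefficient of variation was 6.83% for crowding and 9.93% for ETV4 KD. The libraries of each group were kept as separate replicates, since their counts deviated beyond sampling noise, with a chi-square of 5.24 to 20.9 per degree of freedom. The tables also hold the authors' fold changes and p-values, which were not used, and 16 further columns of per-sample values that were not used.

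The test was the quasi-likelihood test of edgeR 4.0.16 in R 4.3.3, run on the counts of each experiment alone after filterByExpr and TMM scaling, with robust dispersions and p-values adjusted by Benjamini-Hochberg over all genes tested. The difference of the responses was fitted to all 8 libraries over 18679 genes in both tables. With 2 libraries against 2, an exact permutation test of a single gene cannot give a two-sided p below 0.333, and the p-values rest on dispersions shared across genes. Each fit was run on simulated counts with the same spread for all genes and changes planted only in genes with more reads. That simulation does not cover genes with few reads.

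The 55 genes, the further pathway genes, the beta-catenin targets and the markers were listed with earlier results of these data known. Values of every library and tests are given for members called in either comparison or with a mean of at least 5 FPKM in a group, other members are given by ranges and counts, and further pathway genes may be named where called with a mean of at least 1 FPKM in a group. Of the 47 members in the tables, 31 overlap another gene in the GENCODE annotation on GRCh37, and their counts, like those of near-identical family members, are uncertain. FPKM can move apart from counts where transcript lengths were estimated differently between libraries. Motifs were searched in RefSeq promoter windows on GRCh38.p14, and the CCAAT and GC boxes were chosen with the data in view. The settings tried were DESeq2 size factors, library size alone, the DESeq2 1.42.0 Wald test, 2 other count filters, limma 3.58.1 on log2(FPKM + 0.5), on pseudocounts of 0.1 and 1, and without its minimum mean of 0.5 FPKM, a block for the replicate number, fold thresholds of 1 and none, and each library left out in turn.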

Additional observations from a re-analysis of the deposited data

How the results depend on the processing

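Over the 16 calls of single genes after crowding or ETV4 KD, 191 of 208 alternative values kept the direction and the call, 17 kept the direction but lost the call, and 0 changed sign. Settings whose filter left a gene out gave no value and are not among the 208. After crowding, WNT4 had 10 values and WNT8B, WLS, RNF43 and LEF1 had 11 each, where AXIN2 had 14. limma on log2 FPKM called fewer. For crowding it called 7 of the 55 genes with a pseudocount of 0.5 or 0.1, 5 with 1 and 8 without its filter, against 13. For the difference of responses it called 6, 6, 5 and 9, against 14. For the further pathway genes it called 9, 10 and 7 after crowding, against 16, and 5, 5, 3 and, without its filter, 4 after ETV4 KD, against 8. With an absolute log2 fold change over 1, the calls were 6 for crowding, 1 for ETV4 KD and 6 for the difference, and 8 and 4 for the further pathway genes. With the adjusted p alone they were 24, 7 and 23, and 34 and 15. Of all genes tested, 39.7% for crowding, 21.5% for ETV4 KD and 38.5% for the difference passed the adjusted p alone.

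Library size alone as scaling gave 5 calls after ETV4 KD and medians of 0.16 for crowding and -0.19 for ETV4 KD. The limma medians were 0.07 for crowding with pseudocounts of 0.5 and 1, and -0.04, -0.04, -0.03 and -0.08 for ETV4 KD. Leaving out 1 library gave 2 to 10 calls after ETV4 KD, 4 to 11 among the further pathway genes after ETV4 KD, and medians of 0.11 to 0.15 for crowding and -0.11 to -0.08 for ETV4 KD. With crowded, low-density, Ctrl or ETV4 KD libraries left out, a group is a single library that is assumed to vary like the others.

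The signs that changed were of values near 0. SFRP1 after crowding was 0.02 with library size alone, 0.03 with each limma setting and -0.17 to 0.11 without 1 library. After ETV4 KD, FZD8 was -0.03 with library size alone, 0.00 in limma with a pseudocount of 0.1 and -0.22 to 0.22 without 1 library, and TCF7L1 was -0.03 with library size alone and -0.08 to 0.10 without 1 library. Without 1 library, DVL1, FZD2 and TCF7L2 after ETV4 KD ranged from -0.06 to 0.29, -0.40 to 0.07 and -0.07 to 0.08, FZD7 after crowding from -0.04 to 0.07, and the difference for FZD5 from -0.08 to 0.06. The cause was not tested for any of these changes. limma tested 34 of the 47 genes with its filter, but without the filter it tested 47 and still made fewer calls, and NKD1 lost its call after crowding in each limma setting.

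The groups share replicate numbers, but nothing says that a number marks a shared culture, and deviations of same-numbered libraries correlated at -0.0114 for crowding and 0.287 for ETV4 KD. With a replicate block the calls were 13 for crowding, 7 for ETV4 KD (WNT8B, WNT9A, SFRP5 and RNF43 beside the 3) and 17 for the difference.

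At this depth, ligands and targets with under about 100 reads per library carry wide intervals, and changes of less than the fold threshold in them were not detectable. Genes without reads in 1 library are not in a table, so a ligand absent from 1 condition cannot be seen here.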

Other observations

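The unperturbed groups of the 2 experiments stood at different levels for several of these genes. The tables were normalized separately and the low-density and Ctrl libraries differ in more than the experiment, so these differences were not tested and are given as values. SFRP1 read 61.7 and 60.8 FPKM in the low-density libraries and 22.4 and 25.0 FPKM in the Ctrl libraries. TCF7L1 read 58.8 and 59.2 FPKM at low density and 37.5 and 38.5 FPKM in Ctrl, and FZD2 5.40 and 5.67 against 2.01 and 2.49 FPKM. WLS, RNF43 and WNT8B were lower at low density (0.361 and 0.298, 0.200 and 0.163, 0.199 and 0.158 FPKM) than in Ctrl (1.13 and 0.936, 0.502 and 0.580, 0.747 and 0.587 FPKM), where WLS and WNT8B stood above both crowded libraries and RNF43 overlapped them (crowded values of WLS, RNF43 and WNT8B: 0.452 and 0.651, 0.320 and 0.596, 0.582 and 0.437 FPKM). SFRP2 and FZD7, the most abundant antagonist and receptor, were close in both, at 172 and 171 against 176 and 173 FPKM and at 121 and 124 against 133 and 134 FPKM.

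FPKM and read counts did not move together for WNT2B after ETV4 KD. Its FPKM was 0.0414 and 0.0409 in Ctrl and 0.110 and 0.0769 in ETV4 KD, while its read counts were 29 and 27 and then 41 and 26, and the log2 fold change of the counts was 0.26 ± 0.37 (edgeR adjusted p = 0.649).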
